A study of Oryza sativa with 4 samples.

Results

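Mitochondria make ATP by passing electrons from NADH and succinate along complexes I to IV of the inner membrane to oxygen, which pumps protons out, and by letting those protons return through the ATP synthase, complex V. Complex I oxidises NADH, complex II oxidises succinate, complex III passes electrons from ubiquinol to the small carrier cytochrome c, and complex IV passes them on to oxygen. Plants also have an alternative oxidase, which takes electrons from ubiquinol directly to oxygen and is known for stress responses. Most subunits are made in the cytosol from nuclear genes, the rest inside the mitochondrion.

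The loci described here were chosen by words for these complexes in the deposited descriptions, with chloroplast and plastid entries left out, and number 81 of 10455 loci in the table, with 109 of its 14122 transcripts. Libraries of ribosome footprints, the RNA stretches covered by ribosomes, came from shoots of wild-type rice, 2 weeks old, dipped in a bath of 22 °C (the control) or 42 °C (heat) for 10 min. There were 2 libraries at each temperature, labelled as biological replicates, and each pooled 10 shoots. For each transcript the deposited table gives 1 score at 22 °C and 1 at 42 °C. The stated purpose of the series is translational efficiency, so the score is taken as footprints set against RNA. Scores are averaged here over the transcripts of a locus. Since no value per library was used, a difference between temperatures has no replicate error and no test, and the depth behind it is unknown. Differences are therefore given as ratios of 2 scores, and a locus is counted as higher or lower when the scores differ at least 2-fold. More footprints and less RNA cannot be told apart as sources of a higher score.

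The label of a mitochondrial set holds for part of the 81 loci. By description 57 are subunits of complexes I to V or cytochrome c: 16 of complex I, 5 of complex II, 12 of complex III, 8 of complex IV, 15 of complex V and 1 cytochrome c. Another 13 are subunits of the vacuolar ATPase, whose older name is vacuolar ATP synthase, and 11 are assembly proteins, single domains or proteins of other kinds. Of the 57 chain loci, 8 are described as NADH dehydrogenase or ATP synthase, names that plastid enzymes share. Their descriptions give no compartment, so some or all of them may be plastid proteins. The words took in 0 loci described as alternative oxidase.

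For most loci heat left the score within a factor of 2, and the loci past it went both ways. Of the 80 loci above 0 at both temperatures, 63 (78.8%) lay within 2-fold, against 62.3% of the 9280 genes with a ratio. At least 2-fold higher at 42 °C were 8 loci, where 16.1% of all genes were, and at least 2-fold lower were 9, where 21.6% of all genes were. Of the 57 chain loci alone, 44 lay within 2-fold, 6 (10.5%) were higher and 7 (12.3%) lower. The members stood at higher scores than most genes, with a median of 0.188 at 22 °C and 0.194 at 42 °C against 0.0792 and 0.0720 over all 10455 genes, and among genes with high scores fewer were 2-fold apart. At a mean score of at least 0.2, 92.7% of 41 members lay within 2-fold against 80.8% of 2898 genes. There 2 members were at least 2-fold higher, where 11.6% of such genes were, and 1 was at least 2-fold lower, where 7.52% were. The median log2 ratio was -0.08 over the 80 members and 0.03 over all genes, and at a mean score of at least 0.2 it was -0.04 over members and 0.27 over genes. All 13 vacuolar members lay within 2-fold.

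**Figure D1:**
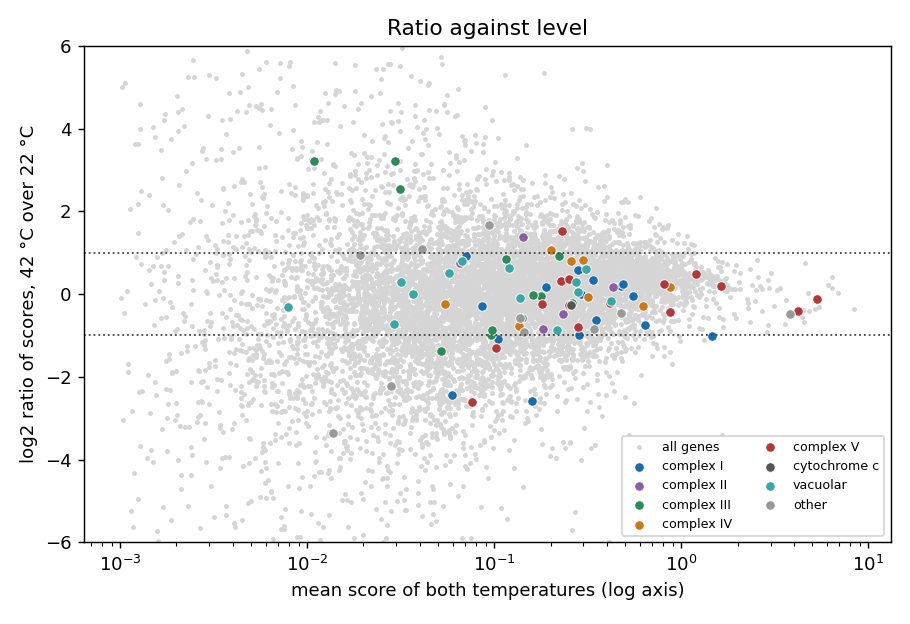
Log2 ratio of the scores (42 °C over 22 °C) against the mean score of both temperatures on a log axis, for all genes (grey) and for the members by role; dotted lines mark 2-fold. The axes leave out 206 of the 9280 genes with a ratio. Grey points spread widely at low scores, and most members lie between the dotted lines.

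The complexes differed little in their medians and more in their spread. The median log2 ratio was -0.16 in complex I, 0.17 in complex II, -0.03 in complex III, 0.05 in complex IV and -0.21 in complex V, and the sign of each median turned under at least 1 other choice of loci, score minimum or centring. All lay inside the quartiles of all genes, -0.83 and 0.67. The ranges of single loci overlapped between all complexes, and no test sets the complexes apart. Complex III was the widest, from -1.37 to 3.22, and complex IV the narrowest, from -0.78 to 1.07. Of the 16 complex I loci 4 (25.0%) were at least 2-fold lower, near the 21.6% of all genes, and 0 higher, where 16.1% of all genes were. Complex III held 3 of the 8 higher loci, 25.0% of its 12 loci against 16.1% of all genes. These 3 all had scores of at most 0.0535 at either temperature.

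**Figure D2:**
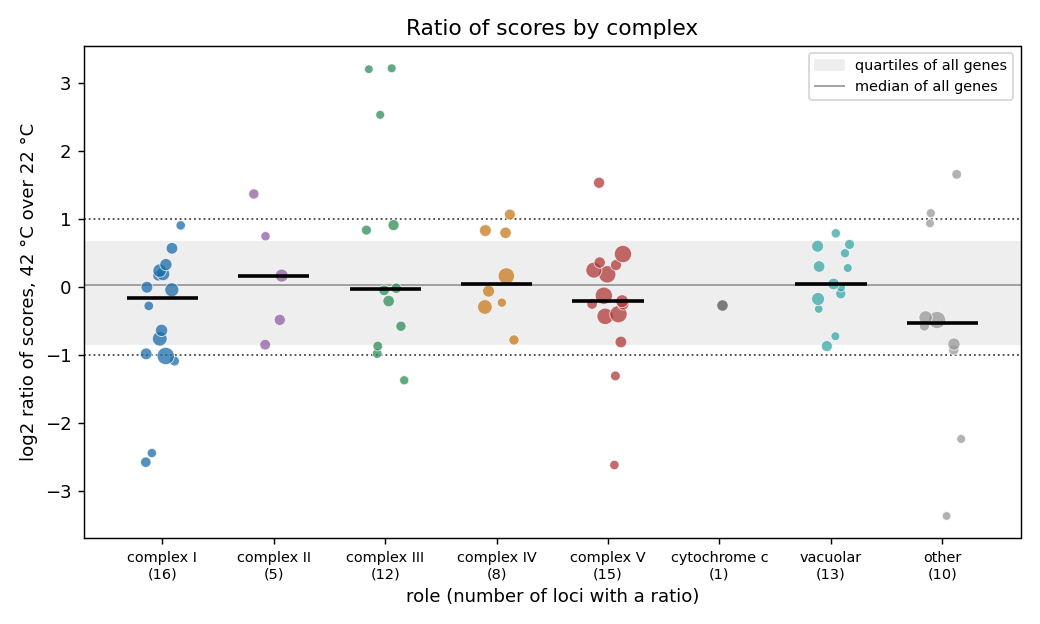
Log2 ratio of the scores (42 °C over 22 °C) for each locus by role, with the number of loci under each role. Point size grows with the mean score, black bars are medians (not drawn for the 1 cytochrome c), the grey band is the quartile range of all genes and dotted lines mark 2-fold. Medians of complexes I to V lie between -0.21 and 0.17, inside the band.

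Within complex I, both core subunits listed for the NADH-oxidising end had lower scores at 42 °C. The other named iron-sulfur and accessory subunits, whatever their place in the complex, were mostly close to level. The 51 kDa subunit, which binds NADH and its flavin, had 0.101 at 22 °C and 0.0186 at 42 °C (Os07g0645400, 5.43-fold lower). The 75 kDa subunit, which carries iron-sulfur clusters next to it, had 0.142 and 0.0669 (Os03g0713400, 2.12-fold lower). All transcripts of both loci had the lower score at 42 °C, but the 75 kDa locus lay within 2-fold by its lowest-numbered transcript alone, which had 0.240 and 0.154. A locus described only as a fragment of the NADH-ubiquinone oxidoreductase had 0.274 and 0.0460 (Os03g0313000, 5.96-fold lower). In contrast, the accessory subunit of alpha subcomplex subunit 2, which in mammals sits in the same arm, had 0.0488 and 0.0917 (Os04g0310500, 1.88-fold higher). The NADH-oxidising end therefore held loci of both directions.

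The subunits that pass electrons on to ubiquinone were close to equal at both temperatures. The PSST subunit, which holds the last iron-sulfur cluster before ubiquinone, had 0.443 and 0.507 (Os05g0533700). A second locus for it, described as the 20 kDa subunit, had 0.557 and 0.543 (Os01g0720300), so the copies differed by 1.26-fold at 22 °C and hardly moved. Subunit 8, another iron-sulfur protein, had 0.0947 and 0.0782 (Os03g0774200), with its 2 transcripts going opposite ways. Accessory subunits do not carry electrons, and 4 others of them differed by less than 1.5-fold. The 18 kDa subunit had 0.293 at both temperatures (Os07g0585800), the smallest difference of the complex. Iron-sulphur protein 6 had 0.444 and 0.526 (Os08g0161700), B18 had 0.178 at 22 °C and was 1.12-fold higher at 42 °C (Os03g0129900) and the 21 kDa subunit had 0.299 and 0.376 (Os08g0431500). The locus described as related to the NADH-ubiquinone oxidoreductase had 0.225 and 0.334 (Os10g0576000), 1.49-fold higher.

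The 4 complex I loci that share a name with the plastid enzyme were lower at 42 °C in each case. Subunit K is listed at 2 loci on chromosome 12 by their names, with 1.96 and 0.972 (Os12g0423313, 2.02-fold lower) and with 0.805 and 0.476 (Os12g0423484, 1.69-fold lower). These were the highest scores of complex I at 22 °C. Subunit N had 0.378 and 0.191 (Os01g0882500), and at 1.97-fold lower it fell just short of the threshold. Subunit 2 had 0.426 and 0.274 (Os04g0309100). Both plastids and mitochondria have an NADH dehydrogenase of this family. The descriptions give no compartment, so some or all of these 4 loci may be plastid ones. Without them the median of complex I was 0.085 over 12 loci, on the other side of 0.

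**Figure D3:**
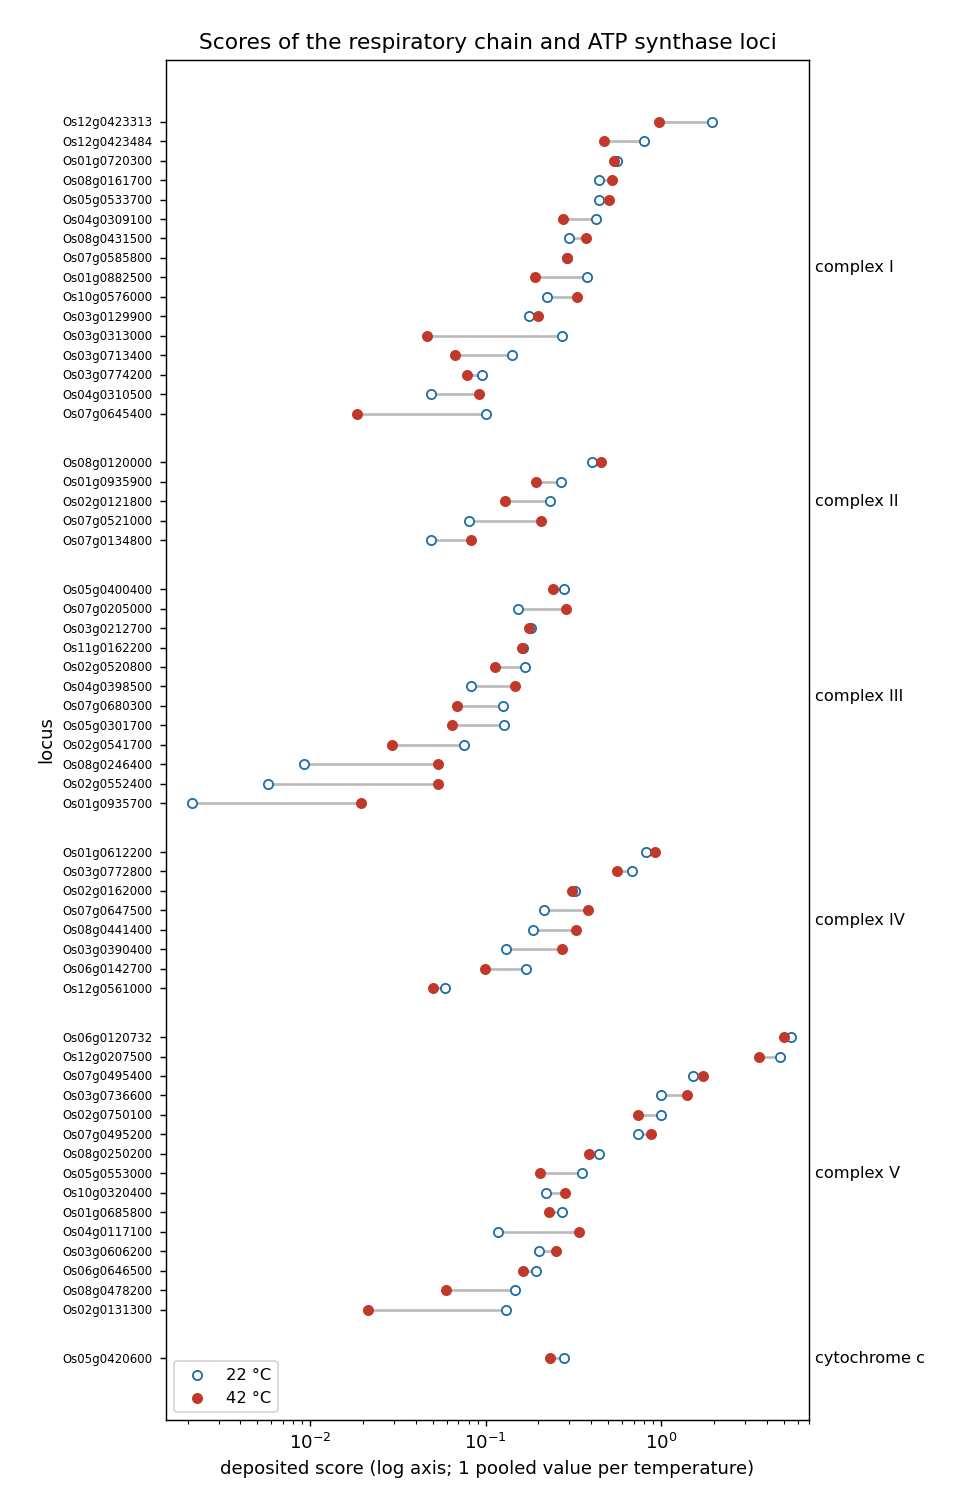
Scores at 22 °C (open circles) and 42 °C (filled circles) of the 57 chain and ATP synthase loci, 1 row per locus, on a log axis, grouped by complex and ordered by mean score within it. The pairs of circles nearly coincide in many rows, while low-scored loci of complex III and a few of complexes I and V lie far apart.

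In complex II, which also works in the TCA cycle, both catalytic subunits had higher scores at 42 °C and the membrane anchors went both ways. The iron-sulfur subunit SDHB had 0.405 at 22 °C and 0.456 at 42 °C (Os08g0120000, only 1.13-fold higher). Its 4 listed transcripts were all higher at 42 °C, among them 1 described as a chimera with the ribosomal protein RPS14, with 0.375 and 0.459. The flavoprotein subunit, which oxidises succinate, had 0.0489 and 0.0822 (Os07g0134800, 1.68-fold higher). Anchor subunit 3 had 0.0799 and 0.207 (Os07g0521000, 2.59-fold higher), the only locus of the complex past 2-fold. Anchor subunit 4 had 0.270 and 0.194 (Os01g0935900), and the locus described as the cytochrome b subunit, the name of an anchor family, had 0.233 and 0.130 (Os02g0121800, 1.80-fold lower). Thus 3 of the 5 loci were higher and 2 lower.

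Complex III showed the largest ratios, in 3 loci with low scores, 2 of which have a better scored partner. Cytochrome c1, the haem protein that hands electrons to cytochrome c, is listed at 2 loci. One had 0.127 at 22 °C and 0.0644 at 42 °C (Os05g0301700, 1.97-fold lower), and the other had 0.00212 and 0.0196 (Os01g0935700, 9.23-fold higher). The 14 kDa protein likewise had 0.153 and 0.289 at one locus (Os07g0205000, 1.88-fold higher, in all 3 transcripts) and 0.00920 and 0.0533 at the other (Os08g0246400, 5.80-fold higher). A locus described only as an electron carrier of this complex had 0.00574 and 0.0535 (Os02g0552400, 9.32-fold higher). The 3 loci beyond 5-fold higher had the lowest scores of the complex at 22 °C. The Rieske iron-sulfur protein, which takes the electrons from ubiquinol, had 0.168 and 0.113 at one locus (Os02g0520800) and 0.0826 and 0.148 at the other (Os04g0398500, 1.79-fold higher). Its scores thus crossed over between the temperatures. The 7.8 kDa hinge protein, which in mammals links cytochrome c1 to cytochrome c, had 0.162 and 0.160 (Os11g0162200) and 0.0753 and 0.0291 (Os02g0541700, 2.58-fold lower).

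The remaining complex III subunits were level or lower. The core subunit taken in by the words, in plants also the peptidase that trims proteins after import, had 0.181 and 0.176 (Os03g0212700). Processing peptidase loci counted with protein import instead were level or lower too. They were Os01g0711100, a beta subunit (0.0622 and 0.0277), Os01g0191500 (0.0726 and 0.0157) and Os01g0739000 (0.0191 and 0.0186). Their descriptions do not name complex III. The 8.0 kDa protein had 0.280 and 0.243 (Os05g0400400), the best score of the complex at 22 °C. The 6.7 kDa protein had 0.125 and 0.0685 (Os07g0680300, 1.82-fold lower). Cytochrome c itself, the mobile carrier to complex IV, had 0.280 and 0.233 at its 1 locus (Os05g0420600), 1.20-fold lower.

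Complex IV subunits on this list surround the catalytic core, and 7 of the 8 lay within 2-fold. Subunit VIb was higher at both of its loci, with 0.130 and 0.274 (Os03g0390400, 2.10-fold higher) and with 0.187 and 0.326 (Os08g0441400, 1.74-fold higher). The first was the only locus of the complex past 2-fold. Subunit VIIa had 0.322 and 0.309 at one locus (Os02g0162000) and 0.215 and 0.384 at the other (Os07g0647500, 1.78-fold higher). Subunit Vb, which binds zinc in mammals, had 0.821 and 0.920 (Os01g0612200), the best score of the complex. Its second locus had 0.171 and 0.0996 (Os06g0142700, 1.71-fold lower), so these copies went opposite ways. Subunit VIa had 0.687 and 0.562 (Os03g0772800) and subunit Vc 0.0589 and 0.0503 (Os12g0561000). The complex thus had 4 loci higher and 4 lower.

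In complex V the beta chains were lower at 42 °C, and the gamma chain, the delta' chains and both named membrane subunits higher. Most of these differences were below 1.5-fold. The beta chain, which makes the ATP, had 0.272 and 0.229 (Os01g0685800) and 0.356 and 0.204 (Os05g0553000, 1.75-fold lower), lower in every transcript of both loci. The gamma chain, the rotating shaft, had 0.220 and 0.283 (Os10g0320400). The delta' chain, part of the rotor, is listed at 2 loci of chromosome 7 and had 1.52 and 1.73 (Os07g0495400) and 0.739 and 0.879 (Os07g0495200). They were 1.14-fold and 1.19-fold higher, the closest ratios of the 13 pairs of loci described alike. The epsilon subunit had 0.446 and 0.386 (Os08g0250200).

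Of the stalk that holds the head still, the OSCP subunit had 0.195 and 0.164 (Os06g0646500), and the D chain had 0.146 and 0.0592 (Os08g0478200, 2.47-fold lower). Of the membrane part, subunit E, which in yeast serves the pairing of the enzymes, had 0.118 and 0.343 (Os04g0117100, 2.90-fold higher). The 6 kDa subunit had 0.201 and 0.252 (Os03g0606200). A locus described only as a mitochondrial ATP synthase, with no subunit named, had 0.130 and 0.0212 (Os02g0131300), 6.13-fold lower and the lowest ratio among the chain loci.

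The highest scores of the chain were those of the ATP synthase loci described as subunit beta with no compartment. They had 5.51 and 5.05 (Os06g0120732) and 4.78 and 3.63 (Os12g0207500), above all other chain loci at both temperatures. A chloroplast-type beta subunit, named CF1 and counted outside the chain, had 4.45 and 3.18 (Os10g0355800). The loci described as mitochondrial beta chains stood far below these scores. Both loci described only as ATP synthase had nearly the same score at 22 °C and then parted, to 0.741 from 0.998 (Os02g0750100) and to 1.41 from 1.00 (Os03g0736600). Without these 4 loci the median log2 ratio of complex V remained -0.21, over 11 loci.

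Loci described alike did not always go the same way. Of 13 pairs in complexes I to V, put together after their scores were seen, 6 had one locus higher and the other lower at 42 °C. They include the pair described only as ATP synthase, which names no subunit, so its loci may not be the same subunit. In the PSST and VIIa pairs 1 of the loci had nearly equal scores at both temperatures (log2 ratios of -0.04 and -0.06), so their opposite signs rest on small differences. Among the 6 pairs the ratios differed most for cytochrome c1 and the Rieske protein of complex III. Copies can share reads that the table may divide between loci, and how shared reads were counted is not given in the sources used here. Of the 21 members with more than 1 transcript, 17 had all transcripts on one side and 4 had transcripts on both.

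**Figure D4:**
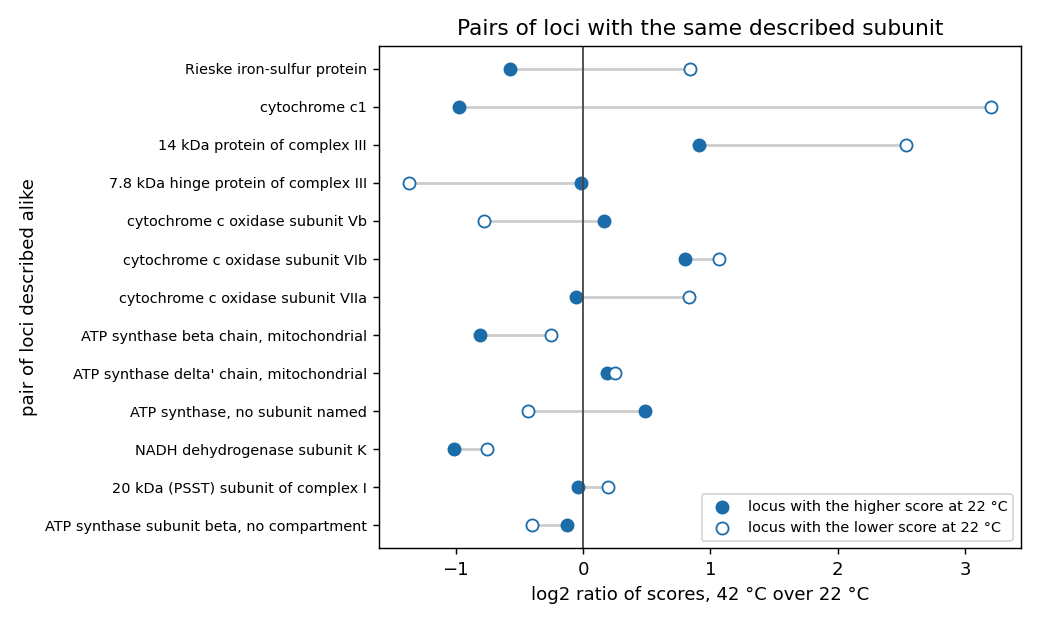
Log2 ratio of the scores (42 °C over 22 °C) of both loci in 13 pairs of complexes I to V described alike, 1 of them with no subunit named. Filled circles are the locus with the higher score at 22 °C. In 6 pairs the circles lie on opposite sides of 0, and the cytochrome c1 pair is the widest, from -0.98 to 3.21.

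The vacuolar ATPase, a proton pump built like the ATP synthase but consuming ATP, was taken in by its older name and had a median of 0.05 over 13 loci, 7 higher and 6 lower. Catalytic subunit A had 0.448 and 0.397 (Os06g0662000) and subunit G 0.276 and 0.285 (Os04g0601700). Subunit F had 0.245 and 0.372 at one locus (Os02g0824700) and 0.142 and 0.132 at another (Os04g0137500). Subunit E, at 0.279 and 0.153 (Os01g0659200, 1.82-fold lower), was the farthest below among the members, and subunit C, at 0.0491 and 0.0851 (Os05g0593100), the farthest above. Outside the word list, the vacuolar B subunit Os06g0568200 had 0.0819 and 0.0337, more than 2-fold lower. Among the 11 loci of other kinds, the assembly protein Cox11, which helps to insert copper in complex IV, had 0.439 and 0.246 (Os03g0718600). A single cytochrome c domain protein had 0.551 and 0.405 (Os02g0814400), and a cytochrome c oxidoreductase without a named complex had 0.0448 and 0.142 (Os03g0341300, 3.16-fold higher). The Cmc1-like biogenesis protein (0.0252 and 0.00244, Os04g0443801) and a cytochrome cd1-like domain (0.0462 and 0.00982, Os01g0183100) were more than 4-fold lower, at low scores. The c-type biogenesis protein Os11g0140800 had 0.0263 and 0.0560, 2.13-fold higher. The remaining loci of other kinds, among them a cytochrome c6 (Os07g0567400), had log2 ratios from -0.92 to 0.94. A nucleotide-binding domain locus (Os12g0112600) had 0.00272 at 22 °C and is listed at 0 at 42 °C.

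Other genes of mitochondrial energy metabolism were listed by words. The TCA cycle and pyruvate dehydrogenase list had 27 loci, 14 higher and 13 lower, with a median of 0.32. It includes glyoxysomal, cytosolic and plastid enzymes and kinases. Past 2-fold were 4 of them, 1 higher (3.70%) and 3 lower (11.1%), both below the shares of all genes, 16.1% and 21.6%. Citrate synthase, the entry of the cycle, had 0.0439 and 0.0869 (Os02g0232400) and 0.0816 and 0.114 (Os02g0194100). The alpha subunit of pyruvate dehydrogenase described as mitochondrial, the enzyme that feeds the cycle, had 0.0644 and 0.124 (Os02g0739600). Another alpha subunit locus had 0.123 and 0.0189 (Os04g0119400). Its description gives no compartment, so it may belong to a plastid enzyme and need not be a copy.

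Mitochondrial carriers, which exchange substrates and ATP across the inner membrane, had 10 of 19 loci past 2-fold, all of them lower (52.6% against 21.6% of all genes), and a median of -1.09. The 7 loci described as ADP/ATP carrier or adenine nucleotide translocator, the family that exports the ATP made by complex V, did not go one way. Far lower were Os02g0718900, with 0.0922 and 0.0181, and Os09g0497000, with 0.306 and 0.0800, and Os05g0357200 had 0.0428 and is listed at 0 at 42 °C. The log2 ratio was -0.16 in Os01g0647100, -0.19 in Os03g0292200, 0.07 in Os11g0661300 and 0.78 in Os08g0386800. The phosphate transporter, which brings in the phosphate, had 0.0763 and 0.0346 (Os02g0767500). Scores of the carriers were lower than those of the chain, with a median of 0.0922 at 22 °C against 0.220 for the 57 chain loci, and the part of this level in their ratios was not tested. Protein import genes, which bring nuclear-made subunits into the mitochondrion, had a median of -0.46 over 23 loci. Past 2-fold were 7 lower (30.4% against 21.6% of all genes) and 1 higher (4.35% against 16.1%). The import list also holds processing peptidases, prohibitins and loci described only by a Tim family or domain. The chain median of -0.06 lay between those of the import and TCA cycle lists, and the differences between lists were not tested.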

How the data were processed

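Per the labels, size-selected ribosome footprints were sequenced from 4 libraries. The submitters' processing notes name cutadapt and Bowtie2, with no version; for the genome build, annotation, strand handling and score formula the sources used here give nothing. The deposited score of each transcript is 1 value per temperature, and the deposited difference equals 42 °C minus 22 °C within 1e-05 in all 14122 transcripts. Whether scores are linear or log values is not stated. The only log form tried was log2(1 + ratio). Under it the 11 members past 2-fold with a mean score of at least 0.05 kept their directions and had larger ratios.

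A locus was a member when any of its transcripts matched, and all its transcripts entered the mean. Roles follow description words, with 12 corrected by reading. The separate vacuolar role, these corrections, the pairs and some words of the comparison lists were chosen after the rows were seen. Log2 ratios needed scores above 0 at both temperatures, with no pseudocount. Named loci are members at least 2-fold apart with a mean score of at least 0.05, the 3 best scored of each role, loci at 0 at one temperature and loci described alike; others were named after their scores were seen. Members, roles and lists were chosen with earlier results of these data known. No test was possible, so counts and medians are descriptions. The reference table of assembly ASM3414082v1 named 0 of 81 members. Python 3.11.15, numpy 2.4.6, pandas 2.3.3, scipy 1.17.1 and matplotlib 3.10.9 were used. Tried were 10 alternatives listed at the start and 3 chosen after seeing the data.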

Additional observations from a re-analysis of the deposited data

How the results depend on the processing

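No paired analysis was possible because the table holds no value per replicate, so replicates could not be left out either. The 8 loci at least 2-fold higher were 18 at 1.5-fold, 4 at 3-fold, 4 at a mean score of at least 0.05, 2 at 0.2 and 1 with 0.1 added to every score. The 9 lower were 21, 5, 7, 1 and 1 in that order. With each transcript on its own, 11 of 108 transcripts were higher and 14 lower. Centring on the better scored genes (mean from 0.2 up) gave 6 loci higher and 19 lower. That centring, a shift of 0.27, gave medians of -0.34 for all members, -0.095 for complex II, -0.21 for complex IV and -0.47 for complex V. Complex I turned to 0.085 without transcripts of suffix 00, and also without the loci that share a plastid enzyme's name. At a mean of at least 0.2 the medians were -0.16 in complex II (2 loci), 0.35 in complex III (2 loci) and 0.031 in complex V (12 loci). The medians of complexes I to V therefore set no order among them. Of the 11 named loci past 2-fold, 9 lay within it with 0.1 added, and 0 changed direction under any alternative run. The same centring took Os03g0390400 inside 2-fold, at 0.80. The depth of the libraries is unknown, which limits most the ratios of low scores.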

Other observations

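Loci of the same complexes or of related proteins, such as inhibitors and assembly proteins, escaped the words and were found after their scores were seen. At 42 °C 6 of 8 were higher, against 4740 of the 9280 genes with a ratio. The 8 leave out the processing peptidase loci of the import list, whose log2 ratios were all below 0. These were -2.20 (Os01g0191500), -1.17 (Os01g0711100) and -0.04 (Os01g0739000), so the count depends on which loci are taken in. A locus described by cyanide-resistant respiration, the function of the alternative oxidase, had 0.222 at 22 °C and 0.357 at 42 °C (Os04g0600200, log2 ratio 0.68). The inhibitor protein of the F1F0-ATPase, which stops the enzyme from consuming ATP, had 0.189 and 0.288 at one locus (Os08g0558900) and 0.189 and 0.445 at the other (Os08g0559000). Its copies had like scores at 22 °C and both were higher at 42 °C. Subunit 8 of the cytochrome b-c1 complex had 0.508 and 0.575 (Os06g0175900) and 0.489 and 0.598 (Os06g0177000), above all complex III members of the word list.

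ATP12, which helps to assemble the head of the ATP synthase, had 0.313 and 0.124 (Os07g0644000). A locus with a domain of the complex I intermediate-associated protein 30 had 0.00969 and 0.0601 (Os01g0727400), a low score at 22 °C. A small complex I subunit had 0.111 and 0.108 (Os10g0579300). ATP12 and Os01g0727400 thus went opposite ways. Of the assembly proteins within the word list, Cox11 and the Cmc1-like protein were lower and Os11g0140800 was higher.

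Of 3 loci left out by the words chloroplast or plastid, 2 describe the ATP synthase and both were lower at 42 °C. The gamma chain had 0.343 and 0.112 (Os07g0513000), and a subunit B locus described as bacterial and chloroplast had 0.353 and 0.122 (Os03g0278900). The third, a cytochrome c-type biogenesis protein, had 0.130 and 0.152 (Os12g0137300). The mitochondrial gamma chain had a log2 ratio of 0.36 against -1.61 for the chloroplast one; the difference was not tested.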
